A study of Mus musculus with 26 samples.

Results

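The extracellular matrix genes of HCmel3 mouse melanomas were described before, early during and after relapse from adoptive T cell therapy. The genes were chosen by name: every array probe annotated to a collagen chain, a laminin chain, or one of Fn1, Sparc, Postn, Dcn, Lum, Bgn, Fbn1, Fbln1, Fbln2, Lox, Thbs1, Thbs2 and Spp1. The names found 138 probes of 61 genes among 45260 probes. Of these, 55 probes of 36 genes were bright enough to be tested, among 9553 genes tested in all. Col6a3, Col12a1, Col20a1, Col21a1, Lama3, Fbn1 and Spp1 were matched to no probe by symbol and were not analysed here.

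The study profiled 26 tumours from C57BL6 mice, each on 1 MouseWG-6 v2.0 bead array from Illumina. Of the 16 tumours in the first table, 8 were not treated (NT) and 8 were excised in the early treatment phase (EDT), from day 12 to day 20 after therapy began. Of the 10 in the second, 5 were not treated (ctrl) and 5 had grown back after adoptive cell transfer (relapse). Therapy was a single dose of cyclophosphamide, pmel-1 CD8+ T cells given intravenously, whose transgenic receptor sees the melanocyte antigen gp100, a gp100 adenovirus as vaccine, and polyI:C with CpG. All 4 groups carry the same HCmel3 melanoma, and the labels describe the material as excised tumour skin, so skin can be part of a sample. The sources used here give neither the day of each EDT tumour nor the age or sex of the mice. Nothing in the labels states whether each tumour of a group came from its own mouse, and p-values therefore reflect only how these samples vary, which may be partly technical.

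Collagens are triple helices of 3 chains that form fibres, sheets or anchors outside the cell. Fibrillar collagens carry most of the tensile load in dermis and stroma, whereas type IV collagen and laminins build the basement membrane on which epithelia and vessels rest. Fibronectin and the matricellular proteins join these scaffolds to cell surface receptors. In skin tumours much of this matrix is made by fibroblasts, while keratinocytes, vessels, macrophages and the melanoma cells add their own components.

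Levels are log2 signals after background correction and quantile normalization, and a change is the difference of 2 group means on that scale with its standard error. A gene was called when its limma adjusted p, over all 9553 genes, was under 0.05. The 2 tables were normalized apart, so levels were compared only within a table, and 1 probe's level was not set against another's. In whole tumour RNA, fewer cells of a type and less RNA per cell cannot be told apart.

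The arrays detected 14064 to 18323 probes each, and between 39 and 74 of the 138 matrix probes. Several tumours stood apart in the matrix genes. Relapse replicate 3 was the lowest of the 5 relapsed tumours for 29 of the 36 genes, against 31.2% of all genes. Relapse replicate 2 was the highest for 28, against 16.5% of all genes. Ctrl replicate 3 was the lowest control for 21 genes, against 20.4%. In the first table EDT replicate 2 was the highest EDT tumour for 23 genes, against 15.7% of all genes. EDT replicates 6 and 1 were the lowest for 15 and 14, against 13.6% and 10.9%. Of the melanocyte markers, all 9 were detected on every NT and ctrl array, whereas Tyr was detected on 0 of 5 relapse arrays.

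Early during treatment the matrix genes that moved were mainly higher: 9 of the 36 were called, 8 higher and 1 lower. Over all genes 29.6% were called, 14.5% higher and 15.1% lower, beside 22.2% higher and 2.78% lower among the matrix genes. The 8 genes that rose were Fn1, the fibrillar collagens Col2a1, Col1a1 and Col5a1, the fibulins Fbln1 and Fbln2, the anchoring collagen Col7a1 and the proteoglycan Bgn. Col4a4, a basement membrane collagen chain, fell. The detection filter asked for a detection p below 0.01 on 5 or more arrays of some group. Col2a1 and Col7a1 met it only in EDT, on 7 and 6 of 8 arrays, so their entry into the test favoured a rise. The median change of the 36 genes was 0.70, with 29 changes above 0 and 7 below, beside a median of -0.05 over all genes. The count was 15 without EDT replicate 6 and 6 without EDT replicate 2, 3, 4 or 8. The share of all genes called was 31.7% without EDT replicate 6 and 26.1%, 25.5%, 24.5% and 24.8% without the others. All 36 genes overlapped between EDT and NT tumours, where 4.58% of all genes lay wholly above and 1.49% wholly below.

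In relapsed tumours 8 of the 36 genes were called, 7 higher and 1 lower, a share of 22.2% beside 30.8% of all genes called, 13.3% higher and 17.5% lower. The genes that rose were Col7a1, Fn1, the laminin chains Lamb1 and Lamb3, the thrombospondins Thbs1 and Thbs2, and Col5a1. Lamb3 met the detection filter only in relapse, on 5 of 5 arrays, so its entry into the test favoured a rise. Lamb2 fell, and it was the only gene of the 36 whose relapse and ctrl tumours did not overlap, where 10.7% of all genes lay wholly below and 7.43% wholly above. The median change was 0.57, beside -0.07 over all genes. At an unadjusted limma p under 0.05 there were 16 of the 36 genes in EDT and 11 in relapse, beside 3894 and 4161 of all 9553 genes. Without relapse replicate 3 the count rose to 14, beside 41.3% of all genes called, with Col1a1, Col6a1, Col6a2, Col15a1, Col18a1 and Lum added. Without it Fn1 changed by 3.35, Lamb1 by 2.77, Thbs1 by 2.51, Lamb3 by 2.09, Thbs2 by 1.85 and Lamb2 by -1.63, and without the high relapse replicate 2 these changes were 2.36, 2.09, 1.83, 1.75, 1.22 and -1.65, of which that of Lamb3 was not called (adjusted p = 0.0552). The 2 comparisons share no samples, and Col5a1, Col7a1 and Fn1 were called in both, while 22 genes were called in neither.

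**Figure D1:**
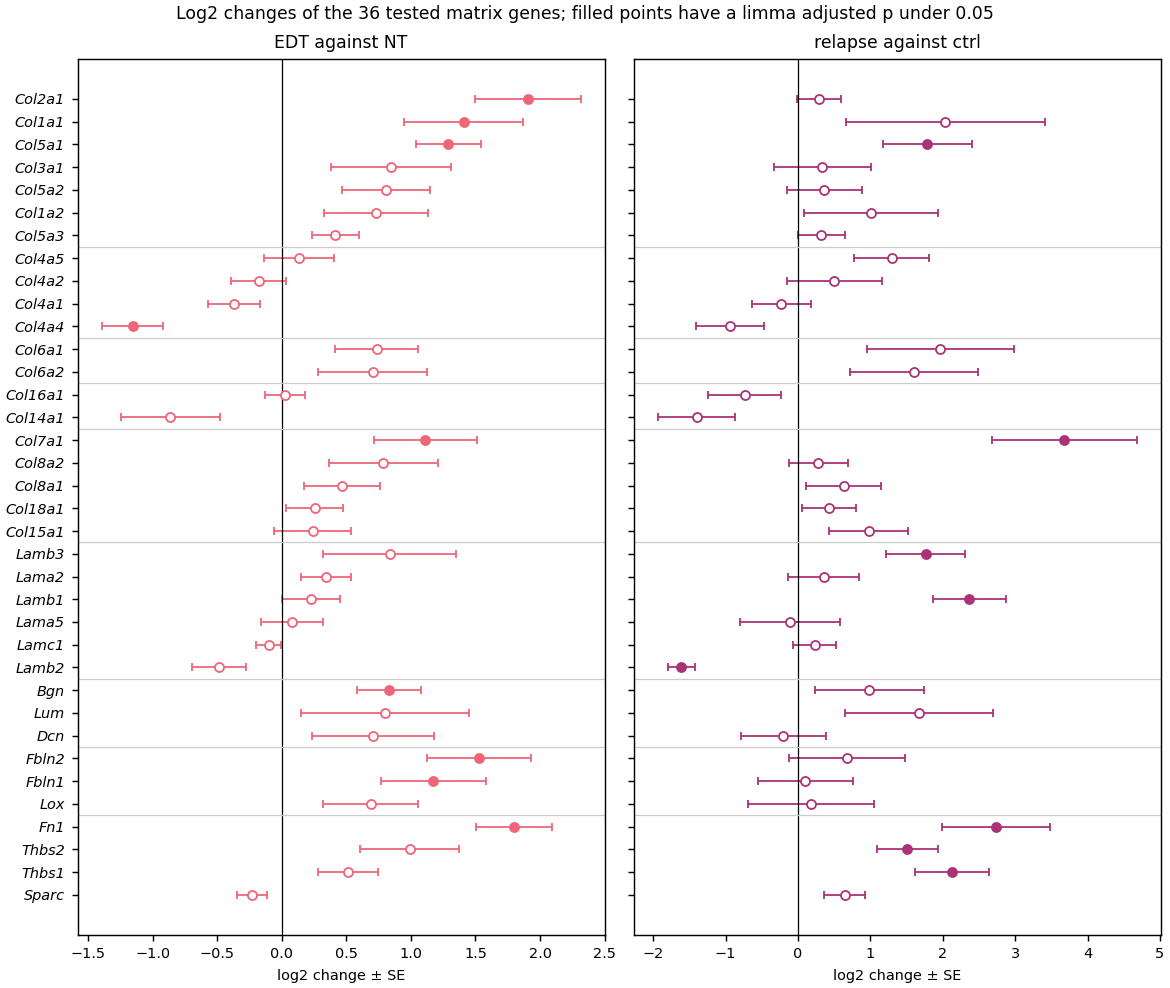
Log2 change with its standard error for each of the 36 tested matrix genes (vertical axis, grouped by role), EDT against NT on the left and relapse against ctrl on the right. Filled points have an adjusted p under 0.05: 9 on the left and 8 on the right, and Lamb2 is the filled point below 0 on the right with the narrowest error.

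The stretches before the start sites of 4 genes are printed. Lamb1 and Lamb2 moved in opposite directions in relapse. Col5a1 and Col7a1 were called in both comparisons, as was Fn1, whose stretch is not printed. Each is the 250 bases before the start in RefSeq's GRCm38.p6 annotation, 5′ to 3′ on the gene's strand. Both strands were searched for 5 motifs, shown in capitals. The GC box is GGGCGG, and the CCAAT box is named by its letters. The TATA box was searched as TATAAA. AP-1 sites were searched as TGANTCA, and STAT sites as TTCNNNGAA. None of the printed matches overlap.
Lamb1, chr12:31265043-31265292, forward strand: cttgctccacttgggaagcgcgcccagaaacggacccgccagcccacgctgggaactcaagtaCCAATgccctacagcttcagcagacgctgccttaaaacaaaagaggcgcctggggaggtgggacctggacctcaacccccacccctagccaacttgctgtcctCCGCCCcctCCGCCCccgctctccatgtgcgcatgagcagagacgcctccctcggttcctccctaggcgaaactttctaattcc
Lamb2, chr9:108479612-108479861, forward strand: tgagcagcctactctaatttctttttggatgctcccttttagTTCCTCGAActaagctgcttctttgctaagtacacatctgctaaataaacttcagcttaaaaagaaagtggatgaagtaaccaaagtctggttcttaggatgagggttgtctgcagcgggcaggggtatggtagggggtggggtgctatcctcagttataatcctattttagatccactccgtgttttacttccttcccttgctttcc
Col5a1, chr2:27886175-27886424, forward strand: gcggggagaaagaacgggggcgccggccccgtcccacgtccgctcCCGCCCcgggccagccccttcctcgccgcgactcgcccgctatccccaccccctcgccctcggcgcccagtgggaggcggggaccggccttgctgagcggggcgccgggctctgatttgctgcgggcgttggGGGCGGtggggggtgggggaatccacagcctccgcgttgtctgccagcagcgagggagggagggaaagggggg
Col7a1, chr9:108953336-108953585, forward strand: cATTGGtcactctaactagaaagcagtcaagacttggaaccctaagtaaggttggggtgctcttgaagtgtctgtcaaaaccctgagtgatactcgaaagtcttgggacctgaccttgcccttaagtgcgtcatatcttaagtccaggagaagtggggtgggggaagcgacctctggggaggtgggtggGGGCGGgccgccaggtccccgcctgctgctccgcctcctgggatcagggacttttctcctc
The Lamb1 stretch held 2 GC boxes and 1 CCAAT box, and the Lamb2 stretch held neither and 1 STAT-type match. Col5a1 held 2 GC boxes, and Col7a1 held 1 GC box and 1 CCAAT box. RefSeq entries were matched for 26 of the 36 tested genes. A GC box lay before 16 of them (61.5%), beside 35.4% of 27025 genes, in stretches with a median GC content of 61.4% beside 52.0%. CCAAT lay before 38.5% beside 37.5%, TATAAA before 7.69% beside 14.3%, TGANTCA before 3.85% beside 7.82% and TTCNNNGAA before 3.85% beside 8.13%. The Col4a1 and Col4a2 start sites lay 21 bases apart on opposite strands. A match is a run of letters and says nothing of binding.

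Fibrillar collagens give connective tissue its fibres. Of 11 such chains with probes, 7 were tested, 3 rose in EDT and 1 in relapse. The shares called were 42.9% and 14.3%, beside 29.6% and 30.8% of all genes. Col5a1, a chain of type V collagen, which starts and sizes type I fibres, lay between 9.57 and 10.52 in NT (median 10.06) and between 10.36 and 12.40 in EDT (median 11.19). The change was 1.29 ± 0.25 (adjusted p = 0.00107), and 7 of 8 EDT tumours lay above every NT tumour. In the second table Col5a1 was 10.22, 10.21, 8.60, 9.77 and 8.96 in ctrl and 11.19, 13.06, 9.09, 11.86 and 11.51 in relapse replicates 1 to 5, a change of 1.79 ± 0.61 (adjusted p = 0.0447). Relapse replicate 3 was the 1 relapsed tumour among the controls, and without it the change was 2.35 (adjusted p = 0.00164). The relapse call was lost without any 1 of the tumours other than relapse replicate 3 and ctrl replicate 2 (adjusted p up to 0.104).

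Col1a1, the main chain of type I collagen, ranged from 8.56 to 10.84 in NT (median 9.67) and from 9.30 to 12.69 in EDT (median 11.24). It rose by 1.41 ± 0.46 (adjusted p = 0.0284) with overlapping groups, and EDT replicates 2, 3, 4 and 8 lay above every NT tumour. Without any 1 of those 4, or of NT replicates 5, 7 and 8, the call was lost (adjusted p up to 0.0617). In ctrl it was 10.02, 10.37, 5.51, 9.09 and 6.79, and in relapse 9.60, 13.91, 5.66, 11.65 and 11.15. No other tested matrix gene was so spread in relapse, with an SD of 3.06, and the change of 2.04 ± 1.38 did not pass (adjusted p = 0.275). Without relapse replicate 3 it was 3.22 (adjusted p = 0.0304). The partner chain Col1a2 changed by 0.73 ± 0.40 in EDT (adjusted p = 0.182) and 1.01 ± 0.92 in relapse (adjusted p = 0.424), both short of the threshold.

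Col2a1, the main collagen of cartilage, was detected by its brightest probe on 0 of 8 NT arrays and 7 of 8 EDT arrays. A second passing probe was detected on 1 NT and 5 EDT arrays and rose by 0.95 ± 0.32 (adjusted p = 0.0355). It too met the detection filter only in EDT, so its entry into the test favoured a rise. By the brightest probe, EDT levels ran from 4.98 to 8.64 (median 6.76), with replicate 2 highest, against NT levels from 4.38 to 5.31 (median 4.58). The measured change was 1.90 ± 0.41 (adjusted p = 0.00227). With the NT level set to the lowest signal each array detected, or the probe's own where higher, the rise was at least 1.96-fold. That bound was not itself tested. Col2a1 was detected by this probe on 0 of 5 ctrl arrays and changed by 0.30 ± 0.30 in relapse (adjusted p = 0.479). Of 7 cartilage and bone markers only Sox9 was tested, since Acan, Matn1, Matn3, Ibsp, Bglap and Alpl had no passing probe, and Sox9 fell in both comparisons by 0.74 and 0.93 (adjusted p = 0.0425 and 0.0237). Col3a1, the type III chain of pliable tissue, changed by 0.84 ± 0.46 and 0.34 ± 0.67 (adjusted p = 0.182 and 0.726), yet its dimmer second probe was called in both, at 1.26 and 2.63 (adjusted p = 0.0207 in each, where 27% and 31% of all probes were called probe by probe). That probe met the detection filter only in EDT and relapse, so its entry into the test favoured a rise. Col5a2 changed by 0.81 and 0.37 and Col5a3 by 0.42 and 0.32, with no call.

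**Figure D2:**
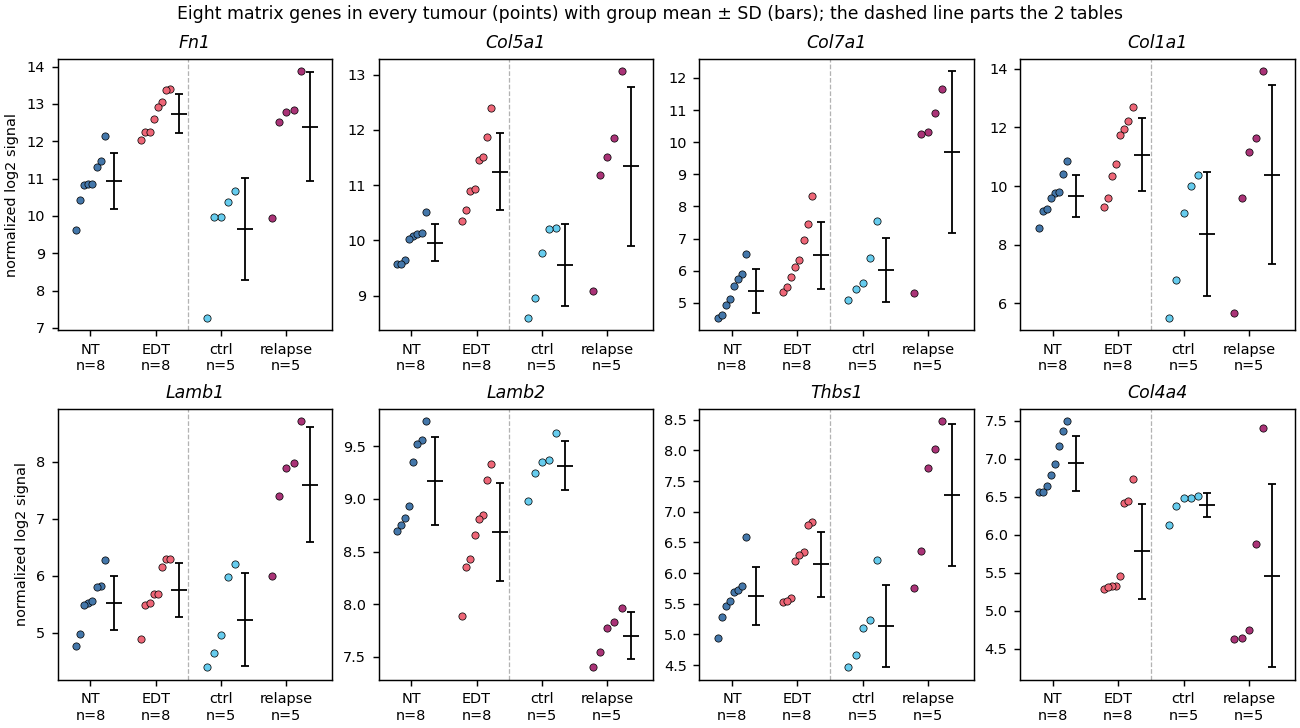
Normalized log2 signal of 8 matrix genes in every tumour (1 point each) for NT, EDT, ctrl and relapse, with the group mean and SD as a bar. The dashed line parts the 2 tables, whose levels are not comparable. For Col7a1 4 relapsed tumours sit between 10.24 and 11.66 and the fifth at 5.31, and for Lamb2 all 5 relapsed tumours sit below all 5 controls.

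Of 4 tested basement membrane collagens 1 fell in EDT and 0 were called in relapse by limma, where 1 had an unadjusted p under 0.05. The shares called were 25% and 0%, beside 29.6% and 30.8% of all genes. Col4a1 and Col4a2, which together form the type IV network found under most epithelia and vessels, changed by -0.37 ± 0.20 and -0.18 ± 0.21 in EDT (adjusted p = 0.176 and 0.561) and by -0.23 ± 0.41 and 0.50 ± 0.65 in relapse (adjusted p = 0.69 and 0.583). Col4a4, a chain of the network best known from the kidney's filter, was between 6.57 and 7.50 in NT (median 6.86) and between 5.28 and 6.73 in EDT (median 5.40). It fell by 1.16 ± 0.24 on the log2 scale (adjusted p = 0.00165), and 6 of 8 EDT arrays still detected it. In relapse it was 4.75, 7.41, 5.88, 4.63 and 4.64, against 6.13 to 6.51 in ctrl. Replicate 2 was the highest of the 10 and the other 4 lay below every control, so the change of -0.93 ± 0.47 did not pass (adjusted p = 0.148). A dimmer probe of the gene fell by 1.62 (adjusted p = 0.000607). That probe was detected on 5 of 5 ctrl and 0 of 5 relapse arrays. It met the detection filter only in ctrl, so its entry into the test favoured a fall. Col4a5 changed by 1.29 ± 0.52 in relapse (adjusted p = 0.0779), and its second probe rose by 2.11 (adjusted p = 0.0192). This second probe met the detection filter only in EDT and relapse.

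Type VI collagen forms beaded filaments around cells. Its chains Col6a1 and Col6a2 changed by 0.73 ± 0.32 and 0.70 ± 0.42 in EDT (adjusted p = 0.0914 and 0.221) and by 1.97 ± 1.02 and 1.60 ± 0.88 in relapse (adjusted p = 0.158 and 0.182). Col6a1 was 11.10, 13.69, 7.61, 12.81 and 11.95 in relapse, against 10.67, 10.51, 7.28, 10.06 and 8.81 in ctrl, so that replicate 3 again lay among the controls. The fibril-associated Col14a1 changed by -0.86 ± 0.39 and -1.40 ± 0.53 (adjusted p = 0.1 and 0.0655), with a second probe called lower in both. Col16a1 changed by 0.03 and -0.74, with no call.

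Col7a1 forms the anchoring fibrils that fasten the epidermal basement membrane to the dermis. Its NT levels ran from 4.53 to 6.53 (median 5.32, detected on 3 of 8 arrays) and its EDT levels from 5.33 to 8.33 (median 6.22, 6 of 8 arrays). The rise was 1.11 ± 0.40 (adjusted p = 0.043), and the call was lost without any 1 of EDT replicates 2, 3, 4 and 8 or NT replicates 1, 2, 3, 5 and 7 (adjusted p up to 0.0843). In ctrl it was 7.56, 5.61, 5.42, 6.39 and 5.08, detected on 3 of 5 arrays. In relapse it was 10.33, 11.66, 5.31, 10.91 and 10.24, a change of 3.68 ± 1.0 or 12.8-fold (adjusted p = 0.0177). In this comparison no other tested matrix gene had a larger change, and without relapse replicate 3 it was 4.78 (adjusted p = 4.23e-05). The difference between the EDT and relapse effects, -2.57 ± 1.01, did not pass (adjusted p = 0.0786).

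Col7a1 is also made by the keratinocytes of skin, and their markers were therefore set beside it. Krt14, the keratin of basal keratinocytes, was 4.74, 14.49, 11.13, 13.99 and 14.77 in relapse replicates 1 to 5, and low in replicate 1, where Col7a1 was 10.33. Krt10 and Lor, keratinocyte genes of the upper layers, were 5.16, 12.12, 5.43, 10.03 and 11.46 and 4.45, 11.89, 4.42, 9.76 and 11.46. In replicate 3, where Col7a1 was 5.31, Krt14 was thus at 11.13 while Krt10 and Lor were low, and all 3 were high in replicates 2, 4 and 5 and low in replicate 1. These were the tested markers of 8, 0 were called by limma in either comparison, and their summed level ran from 6.40 to 15.0 in relapse and from 6.83 to 11.9 in ctrl. Krt5, Krt1, Krt15, Trp63 and Dsg3 had no passing probe. Of 9 tested fibroblast markers 6 were lowest in relapse replicate 3 and 7 highest in relapse replicate 2. The part of these cells in the Col7a1 change was not tested. Col17a1, the collagen of the keratinocyte hemidesmosome, did not pass the detection filter. Its probe read 4.58, 9.91, 7.73, 8.77 and 10.01 in relapse, low and high in the same tumours as Krt14.

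**Figure D3:**
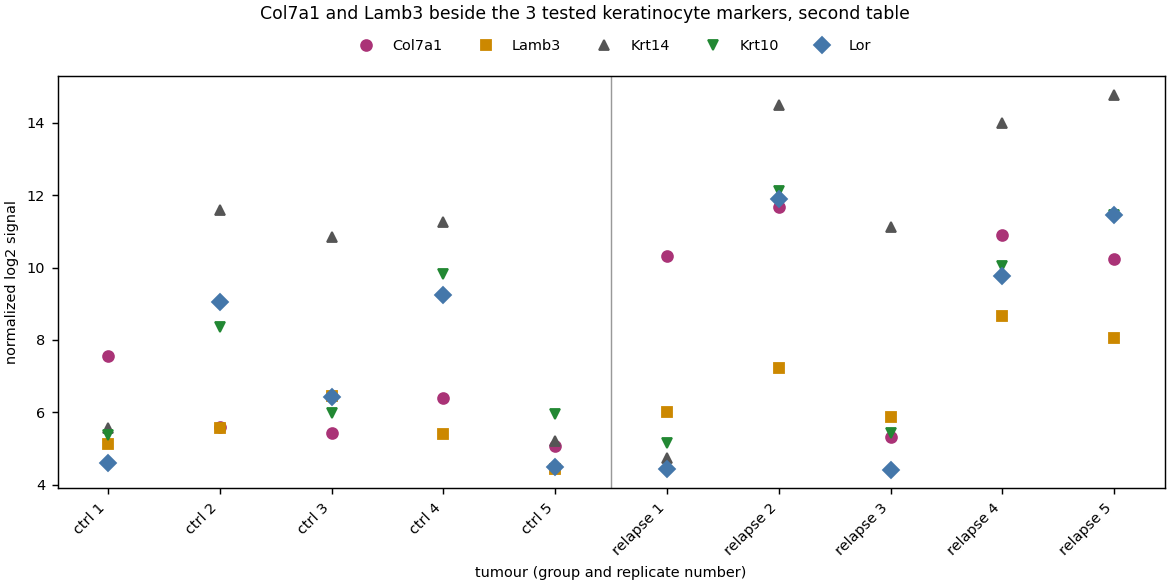
Normalized log2 signal of Col7a1 and Lamb3 with the keratinocyte markers Krt14, Krt10 and Lor in the 10 tumours of the second table, 1 symbol per gene and tumour. In relapse replicate 1 all 3 markers lie between 4.45 and 5.16 with Col7a1 at 10.33, and in relapse replicate 3 Krt14 is at 11.13, Krt10 at 5.43 and Lor at 4.42 with Col7a1 at 5.31.

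Of the other network and multiplexin collagens none was called. Col8a1 and Col8a2, short-chain collagens of vessel walls, changed by 0.47 and 0.79 in EDT and by 0.63 and 0.28 in relapse, and a dimmer Col8a1 probe rose by 2.02 in relapse (adjusted p = 0.0434). Col15a1 and Col18a1, which lie in and beside basement membranes, changed by 0.24 and 0.25 in EDT and by 0.98 and 0.43 in relapse. Among the 25 genes without a passing probe, 9 were detected on 0 arrays and 16 on at least 1. Postn, which encodes the matricellular protein periostin, was detected on 3 of 5 relapse arrays and on 0 of the other arrays, with 5.54, 6.04, 4.77, 5.39 and 4.79 in relapse and 4.33 to 4.99 in ctrl.

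Laminins are trimers of an alpha, a beta and a gamma chain, and the beta chains moved in different directions in relapse. Lamb1, the beta chain of the laminins common to vessels and early basement membranes, was 6.20, 5.97, 4.39, 4.96 and 4.64 in ctrl, detected on 2 of 5 arrays, and 7.98, 8.72, 5.99, 7.90 and 7.41 in relapse, detected on all 5. It rose by 2.37 ± 0.50, or 5.16-fold (adjusted p = 0.00527), and 4 of 5 relapsed tumours lay above every control. Lamb2, the beta chain known from nerve-muscle junctions and the kidney's filter, was 9.35, 9.37, 9.25, 9.63 and 8.98 in ctrl and 7.96, 7.83, 7.77, 7.55 and 7.40 in relapse. It fell by 1.61 ± 0.19 (adjusted p = 0.000231), and unlike most matrix genes its SD was as small in relapse (0.226) as in ctrl (0.233). Leaving out single tumours kept the Lamb2 change between -1.70 and -1.54, and it was -1.47 and -1.83 within the 2 slides.

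Early during treatment neither beta chain was called: Lamb1 changed by 0.23 ± 0.23 (adjusted p = 0.479) and Lamb2 by -0.49 ± 0.21 (adjusted p = 0.088). The test of the difference between effects passed for both, at -2.14 ± 0.51 for Lamb1 (adjusted p = 0.00716) and 1.13 ± 0.30 for Lamb2 (adjusted p = 0.0137). Over the 36 genes 4 passed that test (11.1%), 1 higher and 3 lower, beside 16.6% of all genes, 9.76% higher and 6.8% lower. The others were Thbs1 and Sparc. With slide as a fixed block only Lamb2 of the 4 passed, at 1.62 (adjusted p = 0.00682), and with medians in place of quantiles only Lamb1 passed.

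Lamb3, the beta chain of the laminin that holds epidermis to dermis, was 5.13, 5.58, 6.45, 5.40 and 4.45 in ctrl and 6.0, 7.23, 5.88, 8.67 and 8.05 in relapse. It rose by 1.76 ± 0.54 (adjusted p = 0.0295) with overlapping groups, and the call was lost without any 1 of ctrl replicates 1, 4 and 5 or relapse replicates 2, 4 and 5 (adjusted p up to 0.0728). In EDT it was 8.31, 6.42 and 7.48 in replicates 2, 3 and 4 and at most 4.73 in the other 5 (adjusted p = 0.237). Krt14 was 14.04, 12.96 and 14.40 in those 3 tumours and at most 10.15 in the others, and its part in the Lamb3 levels was not tested. Lamc1, the gamma chain shared by most laminins, changed by -0.10 ± 0.10 and 0.23 ± 0.30, Lama2 by 0.34 and 0.35, and Lama5 by 0.08 and -0.11, and none of these was called.

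Small leucine-rich proteoglycans coat collagen fibres and set their width. Bgn (biglycan) rose in EDT from a median of 12.08 (range 11.74 to 12.93) to 13.19 (12.04 to 13.71), a change of 0.83 ± 0.25 (adjusted p = 0.0185), and changed by 0.99 ± 0.75 in relapse (adjusted p = 0.333). Dcn (decorin) changed by 0.71 ± 0.47 and -0.20 ± 0.59 (adjusted p = 0.277 and 0.821), and its second probe by 1.31 in relapse (adjusted p = 0.214), so the probes differed in sign. Lum (lumican) was the most spread matrix gene in NT and EDT, from 6.03 in EDT replicate 1 to 10.79 in EDT replicate 2, and changed by 0.80 ± 0.65 (adjusted p = 0.374). In relapse Lum was 7.32, 12.66, 6.12, 10.44 and 11.01, a change of 1.67 ± 1.03 (adjusted p = 0.23). Without relapse replicate 3 it was 2.52 (adjusted p = 0.0296).

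Fibulins bind elastic fibres and basement membranes, and by their brightest probes both rose in EDT. A second passing Fbln2 probe changed by 0.93 and was not called (adjusted p = 0.0626). Other passing Fbln1 probes changed by 0.86, 0.90 and 0.83 (adjusted p = 0.0673, 0.0955 and 0.0326). The last of these was detected on 0 NT and 5 EDT arrays. It met the detection filter only in EDT, so its entry into the test favoured a rise. Fbln2 went from a median of 8.66 (7.91 to 9.69) to 10.17 (8.44 to 11.96), a change of 1.53 ± 0.40 (adjusted p = 0.00848). Fbln1 went from 7.45 (6.83 to 8.17) to 8.83 (6.64 to 10.03), a change of 1.17 ± 0.41 (adjusted p = 0.038), and the call was lost without any 1 of NT replicates 1, 2, 3, 4 and 8 or of the EDT replicates other than 1 and 6 (adjusted p up to 0.0805). In relapse they changed by 0.68 ± 0.80 and 0.10 ± 0.66 (adjusted p = 0.546 and 0.925), and the difference between effects did not pass for either (adjusted p = 0.529 and 0.357). Lox, which cross-links collagen and elastin, changed by 0.69 ± 0.37 and 0.17 ± 0.87 (adjusted p = 0.167 and 0.897).

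Fibronectin (Fn1), the adhesive glycoprotein on which other fibres assemble, lay between 9.62 and 12.15 in NT (median 10.85) and between 12.03 and 13.40 in EDT (median 12.76). It rose by 1.80 ± 0.30, or 3.48-fold (adjusted p = 0.000234), and 7 of 8 EDT tumours lay above every NT tumour. EDT replicates 1 and 6, lowest for most other matrix genes, had Fn1 at 13.40 and 12.26. In ctrl it was 9.98, 10.38, 7.27, 10.67 and 9.97 and in relapse 12.83, 13.87, 9.94, 12.51 and 12.78, a rise of 2.73 ± 0.75, or 6.65-fold (adjusted p = 0.0181). All 3 passing Fn1 probes rose in both comparisons, by 1.20 to 1.80 and by 2.01 to 2.73.

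Thrombospondins are matricellular proteins that restrain vessel growth, and Thbs1 can also activate latent TGF-beta. Thbs1 was 5.23, 6.21, 4.47, 5.10 and 4.67 in ctrl, detected on 1 of 5 arrays, and 6.36, 8.48, 5.75, 8.02 and 7.72 in relapse, detected on all 5. It rose by 2.13 ± 0.51 (adjusted p = 0.00988) and changed by 0.51 ± 0.24 in EDT (adjusted p = 0.111), with a difference of effects of -1.62 ± 0.53 (adjusted p = 0.0378). Thbs2 was 11.02, 10.85, 9.94, 11.01 and 10.51 in ctrl and 11.70, 13.34, 10.83, 12.77 and 12.25 in relapse, a rise of 1.51 ± 0.42 (adjusted p = 0.0187), and changed by 0.99 ± 0.39 in EDT (adjusted p = 0.0612). Sparc, a collagen-binding protein, was bright in every tumour, between 13.12 and 13.94 in the first table and between 13.15 and 15.17 in the second. Its changes of -0.23 ± 0.12 in EDT and 0.65 ± 0.29 in relapse were not called (adjusted p = 0.141 and 0.104), while their difference of -0.88 ± 0.27 was (adjusted p = 0.0272). Both differences lost the call without ctrl replicate 3 (-1.45 and -0.77, adjusted p = 0.0765 and 0.0588), without relapse replicate 2 (-1.31 and -0.66, adjusted p = 0.0866 and 0.0594) or without ctrl replicate 5. The Thbs1 difference also lost it without any 1 of EDT replicates 5, 6 and 7, NT replicates 6 and 7, ctrl replicates 1 and 4 or relapse replicates 4 and 5.

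The matrix genes varied more between treated tumours than between untreated ones. The median SD of the 36 genes was 0.447 in NT, 0.756 in EDT, 0.792 in ctrl and 1.21 in relapse, whereas over all genes it was 0.36, 0.292, 0.367 and 0.415. In EDT 30 of the 36 genes had a larger SD than in NT, beside 35.6% of all genes, and in relapse 31 had a larger SD than in ctrl, beside 58.8%. Lum had the largest SD in NT and EDT and Col1a1 in ctrl and relapse. Lamc1 had the smallest in NT and EDT, Col2a1 in ctrl and Lamb2 in relapse.

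**Figure D4:**
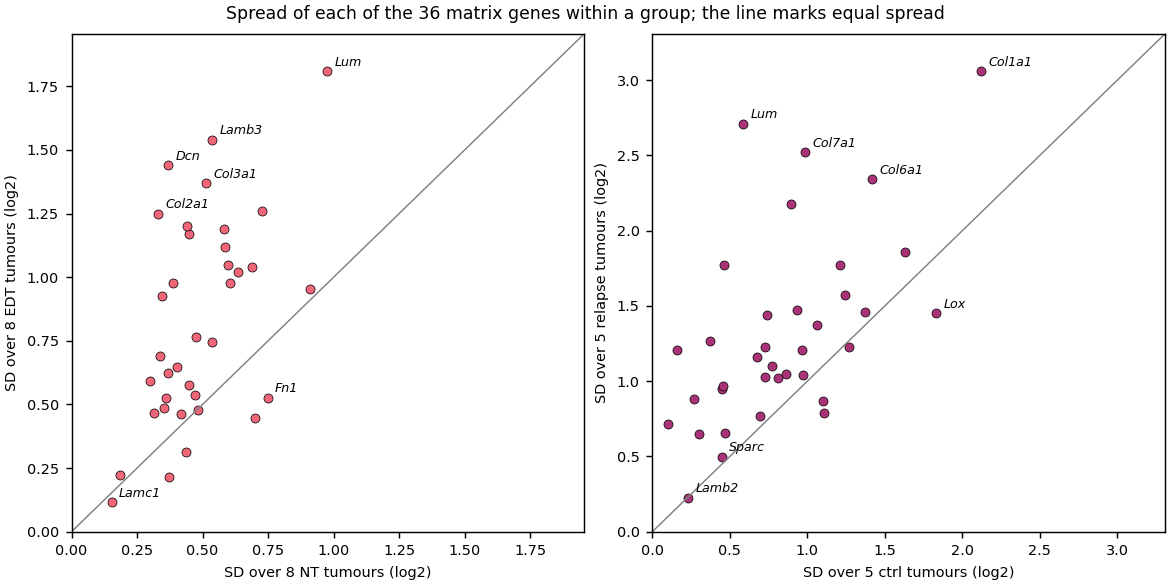
Standard deviation of each of the 36 matrix genes over treated tumours (vertical axis, log2) against untreated tumours of the same table (horizontal axis, log2), EDT and NT on the left, relapse and ctrl on the right. Points above the line are more spread in treated tumours: 30 of 36 on the left and 31 of 36 on the right.

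Single tumours stood high or low across many genes. EDT replicate 2 lay above every NT tumour for 25 of the 36 genes, replicates 3 and 4 for 22 each and replicate 8 for 17, beside 16.8% to 19.3% of all genes in these tumours. EDT replicates 1 and 6 did so for 3 genes each and lay below every NT tumour for 12 and 10, where 17.9% and 8.28% of all genes did. Relapse replicate 2 lay above every ctrl tumour for 30 genes, replicates 4, 5 and 1 for 18, 13 and 12, and replicate 3 for 1. Of all genes, 26.9%, 29.9%, 28.1%, 25.5% and 21.3% did so in replicates 2, 4, 5, 1 and 3, so that the matrix shares of 36.1% and 33.3% in replicates 5 and 1 lay near those of all genes. Relapse replicate 3 lay below every ctrl tumour for 14 of the 36 genes and for 27.4% of all genes.

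The fibroblast markers in part had the same tumours at their ends. EDT replicate 2 was highest for all 9 tested markers, and EDT replicates 6 and 1 were lowest for 5 and 2. Relapse replicate 2 was highest for 7 of 9 and relapse replicate 3 lowest for 6 of 9, and Pdpn, Tagln and Mfap5 were lowest in other relapsed tumours. Pdgfra was 7.11, 9.67, 6.03, 9.24 and 9.08 in relapse replicates 1 to 5, whereas Pdpn was 10.47, 12.77, 11.22, 13.65 and 12.50 and Tagln 5.67, 5.50, 5.81, 6.84 and 5.81. Of 9 tested fibroblast markers 2 rose in EDT, Pdgfra by 1.48 ± 0.41 and Thy1, which T cells carry too, by 1.44 ± 0.39, and 0 were called in relapse. The shares called were 22.2% and 0%, beside 29.6% and 30.8% of all genes. Fap and Tcf21 had no passing probe. The summed fibroblast level ran from 12.2 to 13.3 in NT, 12.2 to 14.7 in EDT, 12.5 to 13.9 in ctrl and 12.2 to 15.0 in relapse, and its part in the matrix changes was not tested.

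**Figure D5:**
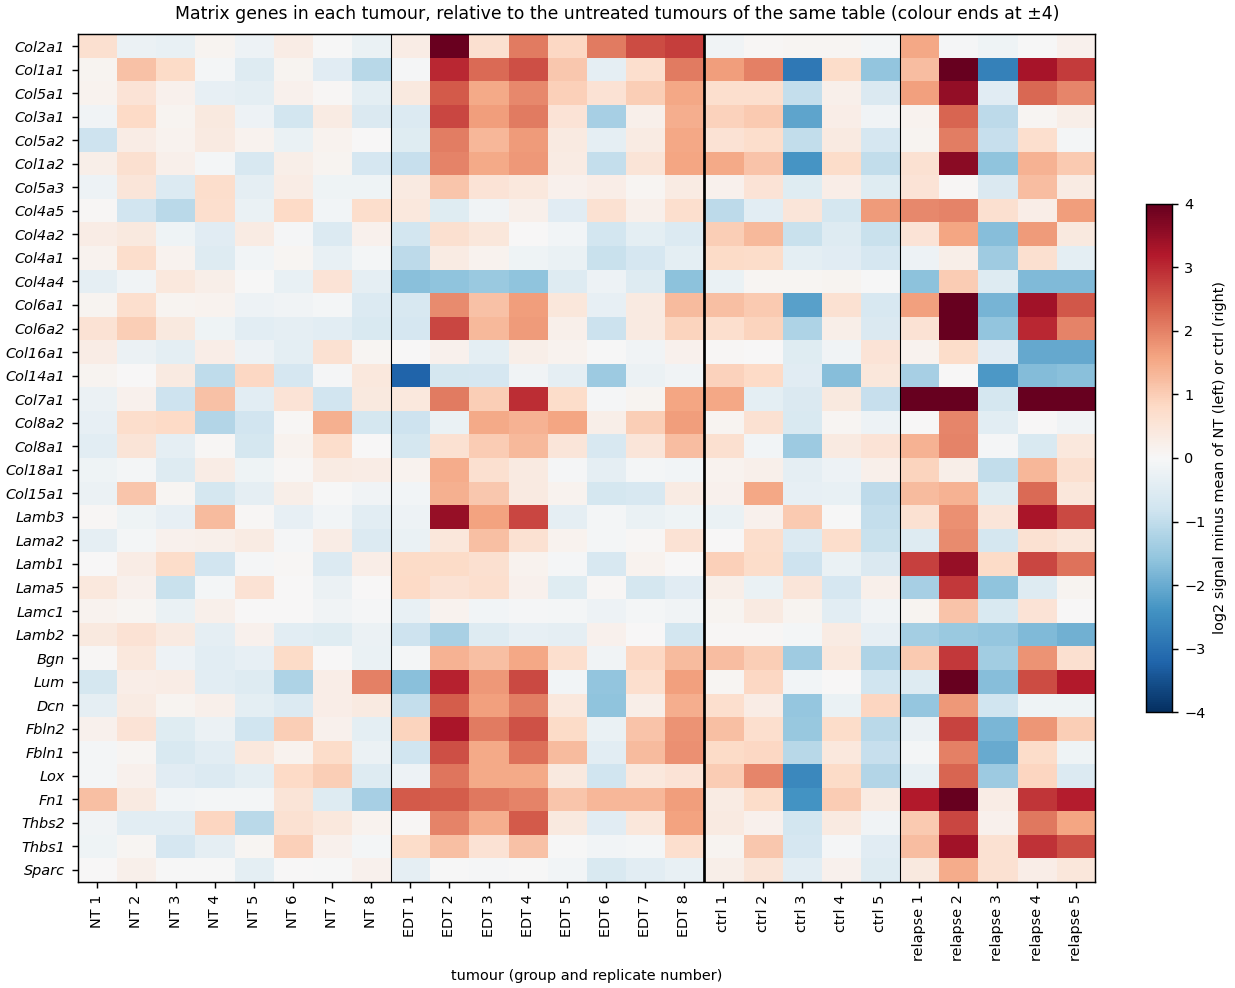
Log2 signal of the 36 matrix genes (rows, by role) in the 26 tumours (columns) minus the mean of the untreated tumours of the same table, with colours ending at 4 in either direction. EDT replicates 2, 3, 4 and 8 and relapse replicates 2, 4 and 5 are red across most rows, relapse replicate 3 and ctrl replicate 3 are mostly blue, and the Lamb2 row is blue in all 5 relapsed tumours.

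Markers of other cell types moved with the groups as well. Macrophage markers rose for 9 of 11 genes in EDT and 8 of 11 in relapse, where Gpnmb, which melanocytes make too, fell by 1.14 ± 0.38 on the log2 scale (adjusted p = 0.0395). Aif1 rose by 3.02 ± 0.32 and 3.60 ± 0.41, and T cell markers rose for 6 of 6 tested genes in EDT and 4 of 6 in relapse. Of these, Cd3d, Cd3e, Cd3g and Cd2 met the detection filter only in treated groups, so their entry into the test favoured a rise. Cd8a and Cd5 had no passing probe. Over all genes 14.5% were called higher and 15.1% lower in EDT, and 13.3% and 17.5% in relapse. The summed levels ran from 15.0 to 15.6 in NT and 15.7 to 16.4 in EDT for macrophages, and from 10.6 to 11.4 and 11.6 to 14.6 for T cells. These sums do not measure cell content. In NT the macrophage sum rested mainly on Gpnmb (14.70 to 15.14), which changed by -0.02 in EDT. The T cell sum in NT rested mainly on Cd8b1 (9.58 to 10.35) and Thy1 (9.21 to 10.42), with Cd3d, Cd3g and Cd2 detected on 0 NT arrays. Melanocyte markers fell for 2 of 9 genes in EDT and 9 of 9 in relapse. Of 8 tested endothelial markers 3 fell in EDT and 1 in relapse, where Vwf fell by 1.69 and 2.24 on the log2 scale. Of the pericyte, skeletal muscle and adipocyte markers 0 of 5, 0 of 7 and 0 of 1 tested genes were called by limma in both, and 2 pericyte genes in relapse had an unadjusted p under 0.05. Macrophages also make Fn1 and Thbs1, and the part of any of these cells in the matrix changes was not tested.

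The slides limit the EDT comparison, because only 1 slide held both NT and EDT tumours. With slide as a fixed block 2 of the 36 genes passed, Col2a1 at 2.68 (adjusted p = 0.0452) and Fn1 at 1.93 (adjusted p = 0.0177), beside 10.9% of all genes. On that slide alone 1 passed, beside 5.02% of all genes. It was Col2a1 at 2.68 (adjusted p = 0.00477), which met the detection filter only in EDT. Fn1 was at 1.93 (adjusted p = 0.0931) and Col5a1 at 1.31 (adjusted p = 0.0599). Col1a1 was 1.85, Fbln1 1.33, Fbln2 1.22, Bgn 0.86, Col7a1 0.80 and Col4a4 -1.03 there, in the direction of the whole comparison. With slide as a random block 7 passed, beside 25.7% of all genes. Both slides of the second table held both groups: 7 genes passed with slide as a fixed block, where 32% of all genes did, and within the slides alone 1 gene (Lamb2) and 15 genes did, where 5.95% and 25.6% of all genes did. On the first of these slides, which held ctrl replicate 3 and relapse replicates 2 and 3, Col7a1 changed by 2.90 and Fn1 by 3.0 (adjusted p = 0.278 and 0.158), and on the second by 4.84 and 2.33 (adjusted p = 0.00336 and 0.00861).

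Of 17 tested genes for enzymes and helpers that fold, cut and join collagen, 3 rose and 2 fell in EDT, and 5 rose and 0 fell in relapse. The share called was 29.4% in each comparison, near the 29.6% and 30.8% of all genes. Tgm2, a transglutaminase that cross-links matrix proteins, rose by 2.48 ± 0.31 and 1.96 ± 0.29 (adjusted p = 1.53e-05 and 0.000932). P4ha2, a prolyl hydroxylase, rose by 0.70 and 0.98, while the lysyl hydroxylase Plod1 and the prolyl hydroxylase P3h1 fell by 0.79 and 0.45 on the log2 scale in EDT. Pcolce, which speeds the cutting of procollagen by Bmp1, rose by 2.07 ± 0.42 in relapse (adjusted p = 0.00436) and changed by 0.04 in EDT, and the difference passed (adjusted p = 0.00226). Bmp1 itself rose by 1.19 ± 0.40 in relapse (adjusted p = 0.0426). The median of the list was 0.06 in EDT and 0.08 in relapse, and P4hb, its brightest gene, changed by 0.02 and 0.06.

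Of the receptors for matrix, 6 of 20 rose and 1 fell in EDT, and 6 rose and 2 fell in relapse, shares of 35% and 40% beside 29.6% and 30.8% of all genes. Itga7, an alpha chain of laminin-binding integrins, was between 4.74 and 5.72 in ctrl, detected on 2 of 5 arrays, and 8.69, 9.01, 7.88, 7.94 and 9.52 in relapse. It rose by 3.49 ± 0.33 (adjusted p = 8.73e-05), and in EDT it was also called (adjusted p = 0.0272), detected on 0 NT and 4 EDT arrays. Itga7 met the detection filter only in relapse, on 5 of 5 arrays, so its entry into the test favoured a rise. The difference of effects was -2.79 ± 0.40 (adjusted p = 0.000367). Itga3, another laminin-binding chain, rose by 2.27 ± 0.57 in relapse and changed by 0.23 in EDT (difference -2.03, adjusted p = 0.0114), and their partner Itgb1 rose by 1.60 ± 0.43 in relapse. Itga11, a collagen receptor chain of fibroblasts, rose by 1.33 ± 0.39 in EDT, and Itga9 fell by 1.49 ± 0.30. The collagen receptor kinase Ddr1 fell by 1.36 ± 0.37 in relapse. Cd44, the brightest receptor, changed by -0.36 and 0.09, with no call.

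TGF-beta is a strong inducer of matrix genes. Of 14 tested genes of its pathway 3 rose in each comparison and 0 fell, a share of 21.4% beside 29.6% and 30.8% of all genes called. Tgfbi, a matrix protein named for its induction by TGF-beta, rose by 2.49 ± 0.31 in EDT and 4.44 ± 0.45 in relapse (adjusted p = 1.19e-05 and 0.000127), and the receptor gene Tgfbr2 rose by 0.68 and 1.51. Ltbp1, which stores latent TGF-beta in the matrix, rose by 3.40 ± 0.56 in relapse (adjusted p = 0.00169) and changed by 0.04 ± 0.26 in EDT, a difference of -3.36 ± 0.59 (adjusted p = 0.000945). Ccn2, the brightest gene of the list, changed by 0.38 and -0.26, with no call. Of 5 tested basement membrane partners, Agrn, Hspg2, Nid1, Nid2 and Sparcl1, 0 were called in either comparison by limma, although 2 had an unadjusted p under 0.05 in each.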

How the data were processed

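Per the labels' protocols, biotin-labelled cRNA was made from 100 ng of total RNA. The deposited tables give a mean bead intensity per probe, not background-corrected or normalized, and a detection p-value, which per the file headers belongs to the same array. The second table adds a count of beads and the standard error of their signal, per the file headers. These were used for precision alone: the standard error was 2.31% to 9.37% of the signal (median 4.64%) over 23 to 78 beads. The authors' deposited processed values are on a log2 scale, found by setting them against the scanner signals, and were used as an alternative. In 4 probe rows of the first table entries were exchanged or mistyped, so detection entries deposited there are partly other values, and these rows were left out, as were 17 probes that the first table lacks.

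Each table was normalized with neqc of limma 3.58.1 (R 4.3.3; controls inferred from detection p, offset 16). A probe passed when 5 or more arrays of some group had a detection p below 0.01, and a gene was read from its brightest passing probe. Of 61 matrix genes 36 passed, 15 with more than 1 passing probe, and these differed in call for 4 genes in EDT and 5 in relapse. Symbols came from the platform annotation. lmFit and eBayes gave two-sided p-values, adjusted by Benjamini-Hochberg, and were tested on simulated data. Intervals cover spread between tumours, and their number limits the precision. Alternatives changed the background correction, normalization, detection filter, probe choice, slide, replicate block, and left out each tumour. The members and lists were chosen with earlier results of these data known. Every matrix gene could be named, with full values for called genes and the main fibrillar, type IV, proteoglycan and matricellular genes. Of other lists, up to 3 called genes per direction with the largest change and the brightest gene were named.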

Additional observations from a re-analysis of the deposited data

Results flagged for a closer look

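Within groups, 10 of 144 sets of values had 1 tumour set apart from the others, where chance alone gives about 7.2. Relapse replicate 3 was low for Col7a1 at 5.31, with the next at 10.24. Relapse replicate 2 was high for Col8a2 at 7.31 and Sparc at 15.17, and relapse replicate 1 for Col2a1 at 5.99. Ctrl replicate 3 was low for Fn1 at 7.27, with the next at 9.97. In EDT, Col14a1 was low in replicate 1 at 5.10 and Col5a3 high in replicate 2 at 6.27. In NT, Lamb3 was high in replicate 4 at 6.07, where Krt14 was 13.49, Lum was high in replicate 8 at 9.71 and Sparc low in replicate 5 at 13.33.

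The EDT and relapse effects differed by limma's test for 4 genes. The difference, EDT effect minus relapse effect, was -2.14 for Lamb1 (adjusted p = 0.00716), 1.13 for Lamb2 (adjusted p = 0.0137), -0.88 for Sparc (adjusted p = 0.0272) and -1.62 for Thbs1 (adjusted p = 0.0378). On the authors' values the Sparc and Thbs1 differences did not pass (adjusted p = 0.11 and 0.0527). The 2 effects come from tables normalized apart, and table and effect cannot be told apart.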

How the results depend on the processing

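The count of matrix genes called in EDT was 9, and it was 19 with medians in place of quantiles, 2 with slide as a fixed block, 1 within the shared slide, and 6 to 15 when 1 tumour was left out (15 without EDT replicate 6, 6 without EDT replicate 2, 3, 4 or 8). Of all genes 29.6% were called in the main EDT fit, and 25.6%, 10.9%, 5.02% and 24.5% to 32.4% in these alternatives. The count of 8 in relapse was 4 without the detection filter, 1 and 15 within the 2 slides, and 6 to 14 when 1 tumour was left out (14 without relapse replicate 3). Of all genes 30.8% were called in the main relapse fit, and 13.7%, 5.95%, 25.6% and 22.2% to 41.3% in these alternatives. Without the detection filter, over 19051 genes, the relapse calls of Fn1 (adjusted p = 0.0517), Col7a1 (0.0518), Lamb3 (0.0749) and Col5a1 (0.107) were lost, as were the EDT calls of Col1a1 (0.0641), Fbln1 (0.0822) and Col7a1 (0.0912), and with detection required on every array of a group, which 30 matrix genes met, Col2a1 and Col7a1 were no longer tested. The count of 4 for the difference of effects was 1 with median centring, 1 with slide as a fixed block, and 2 to 6 when 1 tumour was left out (2 without ctrl replicate 3 or relapse replicate 2, 6 without relapse replicate 3). Of all genes 16.6% were called in the main test of that difference, and 6.77%, 8.83% and 10.8% to 26.1% in these alternatives. The other alternatives moved the matrix counts by less than 1.5 times. With median centring the median of all genes moved to 0.29 in EDT and 0.303 in relapse, and higher against lower calls over all genes became 2275 against 174 and 2086 against 656, from 1385 against 1446 and 1270 against 1674. The authors' values ended the calls of the Sparc and Thbs1 differences of effects (-0.60 and -1.52, adjusted p = 0.11 and 0.0527) and added Col2a1. They gave 1747 against 756 and 1536 against 1314, and without the slide block the EDT count over all genes was 2831 against 1045 with it. The median matrix gene changed by 0.95 in EDT and 0.82 in relapse under median centring, and by 0.81 and 0.59 in the authors' values.

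Changes that turned in direction all belonged to uncalled results. With median centring Col4a2 was 0.17 and Sparc 0.10 in EDT and Dcn 0.02 in relapse. The mean over probes gave Dcn 0.56 in relapse and a Col3a1 difference of effects of -0.43. Within the slides Col4a2 was -0.32 and Col4a1 0.68 in relapse. The authors' values gave differences of effects of 0.02 for Bgn and for Col4a1, and slide as a fixed block gave 0.16 for Col1a2. Leaving out 1 tumour, the relapse change ran from -0.19 to 0.69 for Col3a1, from -0.45 to 0.06 for Col4a1 and from -0.68 to 0.14 for Dcn, and the difference of effects from -0.75 to 0.30 for Bgn, -1.81 to 0.25 for Col1a1, -0.93 to 0.37 for Col1a2 and -0.44 to 0.07 for Col4a1. The cause was not tested. Replicate numbers do not pair the samples: same-numbered tumours correlated in their deviations by -0.05 to 0.18 (NT and EDT) and -0.06 to 0.34 (ctrl and relapse), and not every tumour correlated best with its own number. With the replicate block 8, 10 and 5 matrix genes were called in EDT, relapse and the difference, beside 26.3%, 32.6% and 16.4% of all genes. Col2a1, Lamb1 and Thbs1 were detected on few or none of the control arrays, so background limits how low their control levels could read.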
